A study of Mus musculus with 6 samples.

Results

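The genes described here copy DNA or make its building blocks. They comprise 45 mouse genes picked by symbol for their known role: 6 origin licensing genes, 12 helicase genes, 6 polymerase genes, 7 sliding clamp and strand joining genes, 4 nucleotide synthesis genes, 6 E2F and cyclin E genes, and 4 genes that copy chromatin behind the fork. Of these, 44 were among the 18260 genes of the deposited count table, and Orc1, a subunit of the origin recognition complex, was not analysed here. A filter on low counts left 42 for testing, since Cdc6 and Cdc45 fell below it.

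Expression was measured by RNA sequencing in primary hepatocytes from liver tumours of male mice. All mice received diethylnitrosamine (DEN), a liver carcinogen, as 1 injection of 90 μg per g into the peritoneum at 6 weeks of age. After 3 weeks without treatment they were fed 0.05% phenobarbital (PB), a tumour promoter, for 27 weeks. Ripply1 F/F mice carried Ripply1 alleles flanked by loxP sites. Ripply1 ΔHep mice carried in addition Alb-Cre, a recombinase driven by the albumin promoter, so that deletion was aimed at hepatocytes and not at other liver cells. Each group had 3 libraries, and both groups shared the DEN/PB treatment and the floxed alleles, so no untreated liver and no mouse with Cre alone stands in the comparison. The labels do not tell whether the replicates were separate animals, so p-values reflect only how these libraries spread, which may be technical.

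DNA replication starts in 2 steps. During licensing, the origin recognition complex, Cdc6 and Cdt1 load rings of Mcm2 to Mcm7 on DNA, and geminin (Gmnn) holds Cdt1 back once S phase has begun. Cdc45 and the GINS complex then join the rings to form the active helicase, Mcm10 assists its activation, and the polymerases follow. Most of these genes are targets of the E2F transcription factors, which are active in cells that pass from G1 into S phase. Adult hepatocytes rarely divide, and replication genes are usually low in resting liver and induced during regeneration and in tumours.

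Total counts per library ran from 27772849 to 35894395, so that 1 CPM (counts scaled to library size, here with TMM factors) stood for between 26.67 and 37.87 counts. Ripply1 itself, the targeted gene, had 13, 8 and 12 counts in the F/F libraries and 1, 1 and 2 in the ΔHep libraries, or 0.389 ± 0.124 against 0.0377 ± 0.0131 CPM (SD, n = 3 each). The exact two-sided permutation test gave p = 0.10, the smallest that 3 against 3 libraries allow. Summed hepatocyte markers were high in every library, between 134678 and 158740 CPM. One control library stood apart from its group in markers of other liver cells. F/F replicate 3 had a summed level of 780 CPM for macrophage markers, against 308 and 363 in F/F replicates 1 and 2. Stellate cell (504 against 332 and 377 CPM), endothelial (792 against 450 and 551) and cholangiocyte sums (220 against 147 and 164) had the same order. F/F replicate 3 was also highest in F/F for T and NK cell, B cell and neutrophil sums, but not for erythroid or hepatocyte sums. It was the highest F/F library for 19 of the 44 measured genes, and replicates 1 and 2 were for 14 and 11. Over all genes, the chi-square statistic of 2 libraries' counts per degree of freedom was 49.89 and 54.93 for F/F replicate 3 with replicates 1 and 2. It was 15.6 between those 2 replicates and 63.65 to 95.33 among the ΔHep libraries, so such spread was not particular to F/F replicate 3. For the 42 tested genes, both values are given where leaving F/F replicate 3 out changed a call or moved the log2 fold change by more than 0.4.

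Mcm2 rose in the ΔHep libraries, to 1.92 times its F/F level, and was the one gene of the 42 that passed the test, a call that held in 5 of 13 alternative fits. Across all 14552 genes tested, 1.51% were called higher and 0.165% were called lower by edgeR's quasi-likelihood test at a Benjamini-Hochberg adjusted p under 0.05, and of the replication genes 1, or 2.38%, was called higher and 0 lower, a share near that of all genes. The 244 calls over all genes became 1246 without F/F replicate 3 and 215 without ΔHep replicate 1, but 2, 1, 4 and 5 without F/F replicate 1 or 2 or ΔHep replicate 2 or 3. The log2 fold changes of the 42 ran from -1.29 to 1.61 with a median of 0.30, and 34 were positive and 8 negative. Over all tested genes the median was -0.01 and 48.8% were positive. At an unadjusted p under 0.05, 14 of the 42 (33.3%) were higher and 2 (4.76%) lower, where 14.1% of all genes were higher and 6.97% lower. DESeq2 called 7 higher (16.7%) and 1 lower (2.38%), where it called 7.35% of all genes higher and 1.64% lower.

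The ranges of the 3 F/F and 3 ΔHep libraries did not overlap for 16 of the 42 tested genes with ΔHep higher (38.1%) and for 3 with ΔHep lower (7.14%). The same held for 15.3% and 11.8% of all tested genes. The 16 genes were Mcm2, Mcm3, Mcm5, Mcm6, Gins2, Gins3, Pola1, Prim1, Prim2, Pold1, Pole, Rfc2, Rfc5, Lig1, Rrm1 and Chaf1a. The 3 genes were Orc6, Mcm10 and E2f7. Cdc45, too low to test, lay on that side in CPM only, since its highest ΔHep count equalled its lowest F/F count. Without F/F replicate 3, 7 of the 42 were called higher (16.7%) and 1 lower (2.38%), where 6.79% of all genes were called higher and 1.49% lower. These were Mcm2, Mcm3, Mcm5, Mcm6, Lig1, Rrm2 and Chaf1a on the higher side and Mcm10 on the lower. Leaving out any other single library gave 0 calls among the replication genes.

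**Figure D1:**
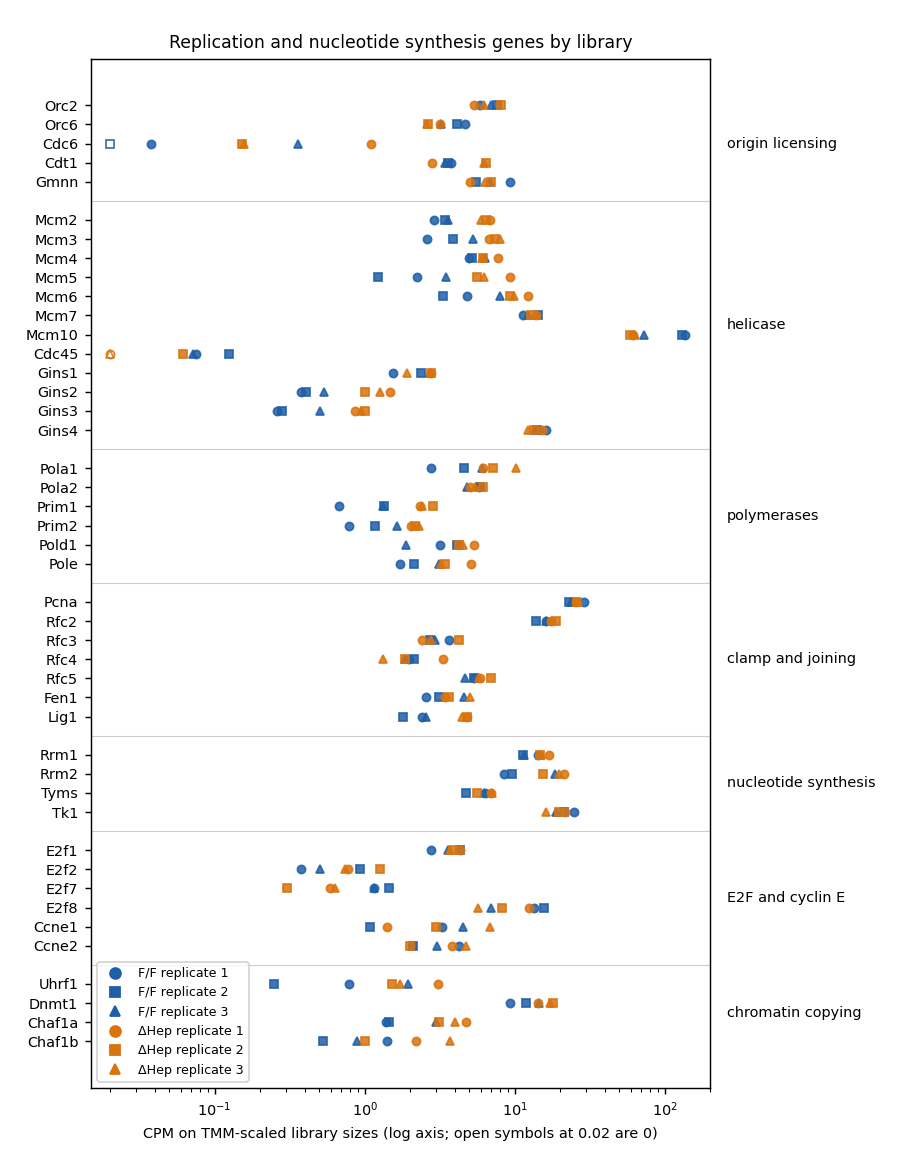
Level of each of the 44 measured replication and nucleotide synthesis genes in every library, in CPM on a log axis, grouped by role; blue marks the 3 F/F and orange the 3 ΔHep libraries, and open symbols stand for 0. Among the genes whose orange points lie to the right of all blue points are Mcm2, Mcm3, Mcm5, Mcm6, Gins2, Gins3, Prim1 and Lig1. Mcm10 and E2f7 are among those whose orange points lie to the left.

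The start regions of 5 MCM genes are printed to show what the searched promoter letters look like in place. Mcm2 is shown because it passed the test; Mcm5, Mcm6, Mcm3 and Mcm10 were chosen after their values were seen, so no relation between letters and change can be read from these 5. Each window holds 250 bases before and 50 bases after the annotated start, is taken from RefSeq on build GRCm38.p6, and is printed 5′ to 3′ on the strand of the gene. Capitals mark 2 kinds of letters searched on both strands. The first are those of the E2F site, TTTCCCGC, TTTCGCGC, TTTGCCGC or TTTGGCGC, and the second those of the cell cycle homology region (CHR), TTTGAA or TTCGAA, an element known from promoters of mitosis genes. The windows are, in turn, chr6:88898731-88899030 on the minus strand, chr8:75109259-75109558 on the plus strand, and on the minus strand chr1:128359656-128359955, chr1:20820263-20820562 and chr2:5012742-5013041.
Mcm2: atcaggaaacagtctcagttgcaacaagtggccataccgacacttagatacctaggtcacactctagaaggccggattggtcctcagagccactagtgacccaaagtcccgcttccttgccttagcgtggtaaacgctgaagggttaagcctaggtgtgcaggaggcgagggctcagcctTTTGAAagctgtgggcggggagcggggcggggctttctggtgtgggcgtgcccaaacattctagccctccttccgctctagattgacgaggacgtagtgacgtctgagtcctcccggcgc
Mcm5: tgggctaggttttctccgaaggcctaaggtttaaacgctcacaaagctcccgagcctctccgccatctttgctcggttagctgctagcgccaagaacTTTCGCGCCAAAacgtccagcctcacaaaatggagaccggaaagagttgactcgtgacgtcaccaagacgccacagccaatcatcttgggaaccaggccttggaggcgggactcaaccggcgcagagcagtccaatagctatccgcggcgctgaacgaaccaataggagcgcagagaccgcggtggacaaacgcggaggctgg
Mcm6: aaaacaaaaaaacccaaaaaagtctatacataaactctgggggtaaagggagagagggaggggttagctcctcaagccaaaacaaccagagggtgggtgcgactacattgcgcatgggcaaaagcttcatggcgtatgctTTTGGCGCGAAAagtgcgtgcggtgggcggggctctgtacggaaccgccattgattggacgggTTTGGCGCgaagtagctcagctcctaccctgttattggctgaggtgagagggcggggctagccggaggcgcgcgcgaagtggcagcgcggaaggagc
Mcm3: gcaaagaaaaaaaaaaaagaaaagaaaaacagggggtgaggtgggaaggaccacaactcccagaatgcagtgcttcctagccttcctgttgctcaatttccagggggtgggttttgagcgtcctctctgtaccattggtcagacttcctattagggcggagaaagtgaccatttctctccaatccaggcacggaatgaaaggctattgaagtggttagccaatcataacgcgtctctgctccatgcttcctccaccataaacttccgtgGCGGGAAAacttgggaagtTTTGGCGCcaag
Mcm10: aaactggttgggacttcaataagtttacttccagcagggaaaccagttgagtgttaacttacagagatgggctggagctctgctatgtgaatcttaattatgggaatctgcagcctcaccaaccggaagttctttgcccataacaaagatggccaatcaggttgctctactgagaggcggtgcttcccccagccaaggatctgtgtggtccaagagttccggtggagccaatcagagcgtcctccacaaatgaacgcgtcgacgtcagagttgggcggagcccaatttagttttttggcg
Mcm5 held E2F letters at bases -153 and -149 from the start, which overlap each other on opposite strands. Mcm6 held them at bases -110, -106 and -47, the first pair overlapping. Mcm3 held them at bases 20 and 39, just inside the gene. The Mcm2 window held 1 run of CHR letters and no E2F letters, and the Mcm10 window held neither. The Mcm10 window ends in tttggcg, which is TTTGGCGC short of its last letter, and the base after the window was not searched. Genes with E2F letters but no printed window included Mcm7, with letters at bases -165 and 17 and a log2 fold change of 0.11, Rfc3, with letters at bases -10 and 1 and a log2 fold change of 0.02, and E2f7, with letters at base -198 and the lowest fold change of the 42, -1.29.

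Origin licensing genes had differences of both signs. Of the 4 tested, 0 passed and 1 was positive, with log2 fold changes from -0.51 for Orc6 to 0.52 for Cdt1 and a median of -0.14. Orc2, a subunit of the origin recognition complex and the licensing gene with the highest mean level, stood at 5.89, 7.61 and 6.96 CPM in F/F and at 5.36, 8.11 and 6.29 CPM in ΔHep replicates 1, 2 and 3. The groups overlapped fully (log2 fold change -0.05, SE 0.20, edgeR adjusted p = 0.914). Orc6, the smallest subunit of the same complex, stood at 4.69, 4.11 and 3.23 CPM in F/F and at 3.20, 2.63 and 2.61 CPM in ΔHep. All 3 ΔHep values lay below all F/F values, but the difference of -0.51 (SE 0.23) did not pass (edgeR adjusted p = 0.254).

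Cdt1, which loads the MCM ring, and geminin (Gmnn), its inhibitor, both overlapped between the groups. Cdt1 stood at 3.79, 3.62 and 3.41 CPM in F/F and at 2.81, 6.46 and 6.21 CPM in ΔHep, where replicate 1 lay below every F/F library and the other two above. Cdc6, the loading ATPase, was at the limit of detection, with 1, 0 and 10 counts in F/F and 37, 5 and 6 in ΔHep, so the higher ΔHep mean rested on replicate 1.

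The helicase genes held the one gene that passed and the gene with the highest fold change, Mcm5. Of 11 tested, 9 were positive and 2 negative, with a median of 0.91. Mcm2 (chr6:88883474-88898780, minus strand, GRCm38), a subunit of the MCM ring, stood at 2.92, 3.46 and 3.59 CPM in F/F and at 6.81, 6.43 and 5.94 CPM in ΔHep. The lowest ΔHep library exceeded the highest F/F library, and within each group the libraries lay close together. The means of 3.32 ± 0.351 and 6.39 ± 0.437 CPM (SD, n = 3 each) differed by 0.94 on the log2 scale, with SE 0.18 and an edgeR adjusted p of 0.0465. The call was near the threshold: over 13 alternative fits the log2 fold change ran from 0.86 to 1.03, but the adjusted p ran from 0.00114 to 0.182 and passed in 5 of them. It did not pass when F/F replicate 1 or 2 or any ΔHep replicate was left out, with adjusted p = 0.182, 0.174, 0.0895, 0.108 and 0.122 in that order.

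Mcm5, another ring subunit, had the highest fold change of all 42 genes. It stood at 2.25, 1.22 and 3.48 CPM in F/F and at 9.33, 5.57 and 6.29 CPM in ΔHep. The groups did not overlap, and the F/F libraries themselves spread nearly as far in proportion as the groups lay apart. The log2 fold change of 1.61 (SE 0.37) missed the threshold (edgeR adjusted p = 0.0666) and passed without F/F replicate 3 (2.03, adjusted p = 0.0205) and by DESeq2 (adjusted p = 0.000846).

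Mcm3 and Mcm6, the ring subunits next in size of change, kept to the same order. Mcm3 stood at 2.59, 3.87 and 5.31 CPM in F/F and at 6.75, 7.35 and 8.03 CPM in ΔHep, a log2 fold change of 0.91 (SE 0.26, edgeR adjusted p = 0.103). Mcm6 stood at 4.84, 3.34 and 7.96 CPM in F/F and at 12.2, 9.28 and 9.85 CPM in ΔHep, a log2 fold change of 0.96 (SE 0.30, edgeR adjusted p = 0.125). F/F replicate 3 was the F/F library nearest to ΔHep for both, so leaving it out widened the difference. Both then passed, Mcm3 at 1.18 (edgeR adjusted p = 0.0260) and Mcm6 at 1.35 (edgeR adjusted p = 0.0180). Without any other single library neither passed. The edgeR adjusted p then ran from 0.131 to 0.272 for Mcm3 and from 0.183 to 0.333 for Mcm6, with log2 fold changes down to 0.69 and 0.70. Mcm4 and Mcm7, the remaining ring subunits, overlapped between the groups, with log2 fold changes of 0.27 (SE 0.19) and 0.11 (SE 0.14).

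Per length of exon, the 6 ring subunits lay closer to each other in ΔHep than in F/F. Since Mcm2 to Mcm7 form 1 ring with 1 copy of each, their levels can be set side by side as CPM per kb. In F/F the means ran from 0.669 for Mcm5 through 0.986 for Mcm2, 1.23 for Mcm6, 1.29 for Mcm3 and 1.54 for Mcm4 to 4.24 for Mcm7. In ΔHep they ran from 1.85 for Mcm4 through 1.90 for Mcm2, 2.04 for Mcm5, 2.38 for Mcm6 and 2.43 for Mcm3 to 4.58 for Mcm7. The highest subunit was Mcm7 in all 6 libraries, and it stood at 5.86, 13.7 and 4.08 times the lowest in F/F replicates 1, 2 and 3 and at 2.32, 2.71 and 2.77 times in ΔHep. These ratios did not overlap between the groups and are given as a description, without a test. Below Mcm7, neighbours in this order differed by less than the larger of their SDs in either group, though not always by less than the smaller. Mcm5 was below Mcm4 in each F/F library. Part of the exons of Mcm7 overlaps Ap4m1 (10.8% of their length) and Cops6 (2.16%) on the other strand. Ap4m1 stood at 15.2 CPM in F/F and 15.9 in ΔHep, and Cops6 at 79.7 and 74.2. Since the strand setting of the counting is not given, reads of both genes can be among the counts of Mcm7.

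**Figure D2:**
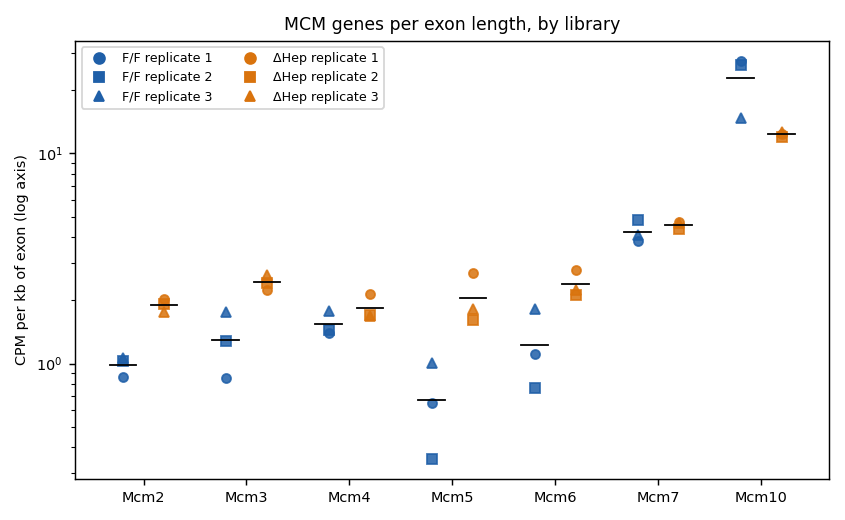
CPM per kb of exon for Mcm2 to Mcm7 and Mcm10 in each library, on a log axis, with F/F in blue, ΔHep in orange and a line at each group's mean. Mcm5 is the lowest subunit in every F/F library (0.651, 0.352 and 1.01), while in ΔHep the subunits other than Mcm7 lie between 1.61 and 2.78; Mcm10 lies above all of them in every library.

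Mcm10, the helicase activation factor, was the most abundant of all the replication genes in F/F and lay on the other side from the ring subunits. It stood at 137, 130 and 73.3 CPM in F/F and at 61.5, 58.8 and 63.0 CPM in ΔHep. All ΔHep libraries lay below all F/F libraries, and F/F replicate 3 was far nearer to ΔHep than to the other F/F libraries. The log2 fold change was -0.89 (SE 0.21, edgeR adjusted p = 0.0687), passed by DESeq2 (adjusted p = 0.00209) and passed without F/F replicate 3 at -1.14 (adjusted p = 0.00719). Per kb of exon its mean was 22.9 ± 7.06 in F/F and 12.3 ± 0.424 in ΔHep (SD, n = 3 each), between 2.65 and 7.26 times the highest ring subunit of the same library. No other annotated exon overlaps those of Mcm10 (chr2:4989714-5012791, minus strand, GRCm38). Its neighbour Optn stood at 115, 111 and 86.6 CPM in F/F and 105, 96.1 and 83.3 CPM in ΔHep (log2 fold change -0.13, edgeR adjusted p = 0.628). Where within the gene the Mcm10 reads lie was not tested.

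Mcm10 made up a large share of the summed level. All 44 genes together summed to 376, 358 and 322 CPM in F/F and 360, 340 and 350 CPM in ΔHep, with full overlap. Without Mcm10 the sums were 239, 227 and 248 CPM in F/F and 299, 281 and 287 CPM in ΔHep, which did not overlap. For Mcm2 to Mcm7 alone the sums were 28.9, 31.4 and 38.8 CPM against 56.7, 47.7 and 50.0 CPM.

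Of the GINS genes, whose products join the ring as a complex of 4 proteins, Gins2 and Gins3 were low and higher in ΔHep without overlap. Gins2 stood at 0.375, 0.405 and 0.538 CPM in F/F and at 1.48, 1.01 and 1.27 CPM in ΔHep (log2 fold change 1.50, SE 0.38, edgeR adjusted p = 0.0777). Gins3 had 7, 9 and 14 counts in F/F and 29, 33 and 36 in ΔHep (log2 fold change 1.42, SE 0.43, edgeR adjusted p = 0.115). Gins1 and Gins4 overlapped between groups, at log2 fold changes of 0.17 and -0.11. Of the Gins2 exon length, 70.7% overlaps Gse1 on the other strand, so its counts are uncertain. Cdc45, the partner of GINS, was all but absent at 2, 4 and 2 counts in F/F and 0, 2 and 0 in ΔHep.

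All 6 polymerase genes had positive log2 fold changes, with a median of 0.79, but 0 passed. The groups did not overlap for 5 of the 6, with ΔHep higher, where this held for 15.3% of all tested genes. Pola1, the catalytic subunit of polymerase α, stood at 2.77, 4.61 and 6.06 CPM in F/F and at 6.13, 7.16 and 10.2 CPM in ΔHep. The lowest ΔHep library was barely above the highest F/F library (log2 fold change 0.81, SE 0.31, edgeR adjusted p = 0.188). Prim1, the primase that lays down the RNA primer, stood at 0.675, 1.34 and 1.33 CPM in F/F and at 2.34, 2.85 and 2.40 CPM in ΔHep. Its groups lay clearly apart, with a log2 fold change of 1.18 (SE 0.33, edgeR adjusted p = 0.102; DESeq2 adjusted p = 0.0255). Prim2, the other primase subunit, Pold1, the lagging strand polymerase δ, and Pole, the leading strand polymerase ε, had log2 fold changes of 0.85, 0.61 and 0.76. Pola2, the accessory subunit of polymerase α, was level at 0.01 (SE 0.18).

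Among clamp and joining genes, all 7 were positive, with a median of 0.23, and 0 passed. Pcna, the sliding clamp, stood at 28.8, 22.9 and 23.9 CPM in F/F and at 25.8, 26.1 and 26.4 CPM in ΔHep. The ΔHep values lay inside the F/F range (log2 fold change 0.05, SE 0.12, edgeR adjusted p = 0.850). Per kb of exon Pcna had the highest level of all these genes in ΔHep, 17.2, and the next to highest in F/F, 16.6. Lig1, the ligase that seals Okazaki fragments, stood at 2.40, 1.81 and 2.55 CPM in F/F and at 4.80, 4.78 and 4.44 CPM in ΔHep. The groups were well apart and the difference of 1.05 (SE 0.22) was just short of the threshold (edgeR adjusted p = 0.0580), passing by DESeq2 (adjusted p = 0.00205) and without F/F replicate 3 (adjusted p = 0.0324). The clamp loader genes Rfc2, Rfc3, Rfc4 and Rfc5 and the flap nuclease gene Fen1 had log2 fold changes between 0.02 and 0.28.

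Nucleotide synthesis genes were among the more abundant. Of 4 tested, 3 were positive, the median was 0.25 and 0 passed. Tk1, the salvage enzyme thymidine kinase, stood at 24.9, 21.4 and 19.0 CPM in F/F and at 21.8, 19.7 and 16.3 CPM in ΔHep, with overlap (log2 fold change -0.17, SE 0.15, edgeR adjusted p = 0.564). Rrm1, the large subunit of ribonucleotide reductase, stood at 14.4, 11.3 and 11.5 CPM in F/F and at 17.0, 14.8 and 14.9 CPM in ΔHep. These did not overlap, by a narrow margin (log2 fold change 0.33, SE 0.15, edgeR adjusted p = 0.247).

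Rrm2, the small subunit of the same enzyme and the one that limits its activity in S phase, depended on 1 control library. It stood at 8.55, 9.66 and 18.6 CPM in F/F and at 21.5, 15.5 and 19.9 CPM in ΔHep. F/F replicate 3 lay among the ΔHep libraries. With it the log2 fold change was 0.63 (SE 0.29, edgeR adjusted p = 0.256), and without it 1.05 (adjusted p = 0.0180). Tyms, which makes thymidylate, was at 0.17 (SE 0.19).

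The E2F and cyclin E genes, which lie upstream of the others, were mixed. Of 6 tested, 4 were positive and 2 negative, with a median of 0.16 and 0 passing. E2f7 and E2f8 encode atypical E2F factors that repress E2F targets. E2f8 stood at 13.5, 15.7 and 6.96 CPM in F/F and at 12.5, 8.26 and 5.73 CPM in ΔHep, with overlap (log2 fold change -0.45, SE 0.35, edgeR adjusted p = 0.498). E2f7 stood at 1.16, 1.46 and 1.15 CPM in F/F and at 0.592, 0.306 and 0.634 CPM in ΔHep, all ΔHep libraries being lower (log2 fold change -1.29, SE 0.40, edgeR adjusted p = 0.129). The activators E2f1 and E2f2 were at 0.14 (SE 0.23) and 0.59 (SE 0.47), and the cyclins Ccne1 and Ccne2 at 0.35 (SE 0.62) and 0.18 (SE 0.37), all with overlapping groups. Without F/F replicate 3, Ccne1 was at 0.79, and without ΔHep replicate 3 it was at -0.43.

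The chromatin copying genes were all positive, with a median of 1.06, and 0 of 4 passed. Dnmt1, the maintenance DNA methyltransferase, stood at 9.26, 11.9 and 14.6 CPM in F/F and at 14.4, 18.1 and 17.3 CPM in ΔHep. F/F replicate 3 just exceeded ΔHep replicate 1 (log2 fold change 0.48, SE 0.19, edgeR adjusted p = 0.198). Chaf1a, the large subunit of the histone chaperone CAF-1, stood at 1.39, 1.46 and 3.01 CPM in F/F and at 4.77, 3.15 and 4.01 CPM in ΔHep. F/F replicate 3 lay just below the lowest ΔHep library (log2 fold change 1.03, SE 0.35, edgeR adjusted p = 0.151), and without that library the difference was 1.47 (adjusted p = 0.0272). Exons of Chaf1a overlap Ubxn6 on the other strand over 33.6% of their length, and Ubxn6 stood at 49.1 CPM in F/F and 46.1 in ΔHep, so these counts are uncertain. Chaf1b, the CAF-1 partner, had a log2 fold change of 1.29 (SE 0.54) with overlapping groups, and 0.76 without ΔHep replicate 3. Uhrf1, which guides Dnmt1 to the fork, stood at 0.787, 0.249 and 1.94 CPM in F/F and at 3.08, 1.53 and 1.72 CPM in ΔHep. Its groups overlapped through F/F replicate 3 alone. The log2 fold change was 1.10 (SE 0.63, edgeR adjusted p = 0.355), 2.03 without F/F replicate 3 (adjusted p = 0.0749) and 0.62 without F/F replicate 2 (adjusted p = 0.599).

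**Figure D3:**
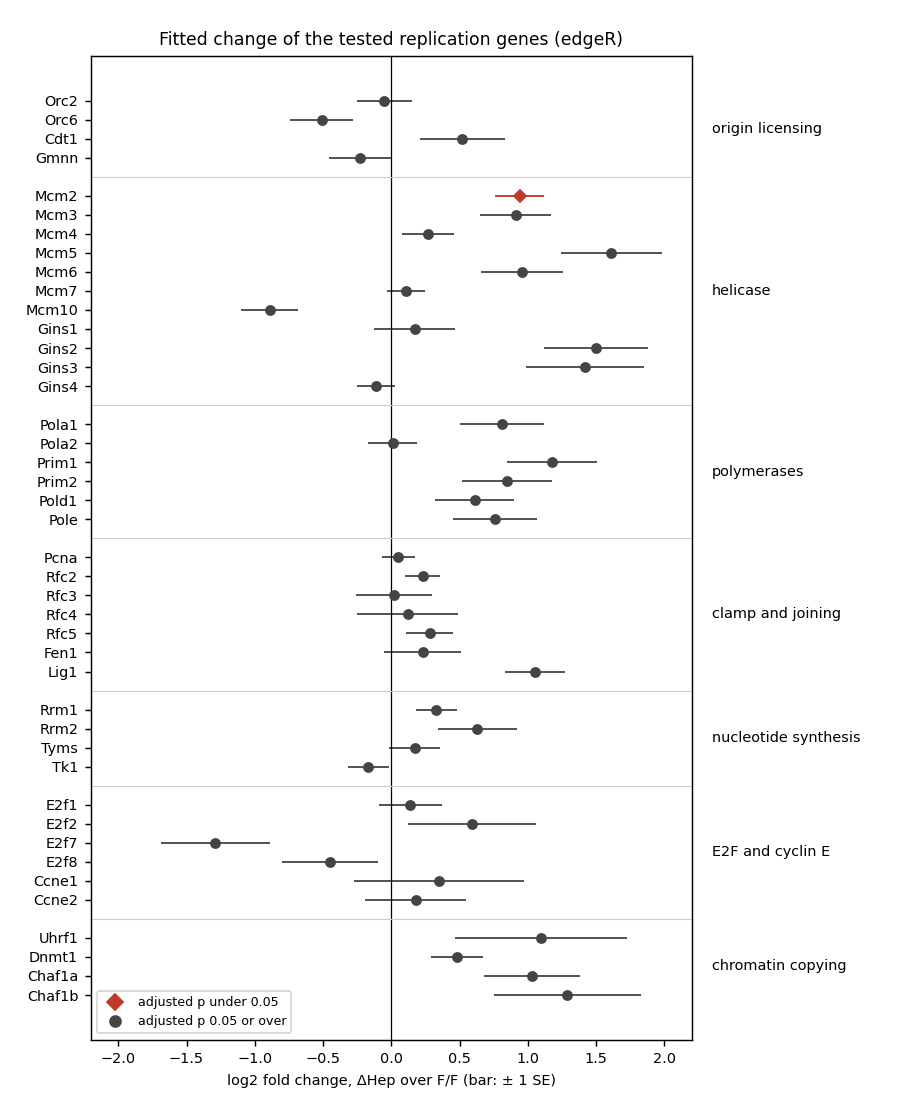
Log2 fold change (ΔHep over F/F) with its standard error for each of the 42 tested genes, ordered by role. The changes run from -1.29 for E2f7 to 1.61 for Mcm5, and Mcm2 at 0.94 is the one gene past the adjusted threshold.

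Other genes of replication did not share a direction gene by gene, though their summed level was lower in ΔHep. A wider list of 89 names, covering other fork, nucleotide synthesis, S phase entry and chromatin assembly genes, had 87 in the table and 83 tested. By edgeR 0 passed. At an unadjusted p under 0.05, 9 were higher and 5 lower, where 14.1% of all genes were higher and 6.97% lower. DESeq2 called 2 higher and 1 lower, where it called 7.35% of all genes higher and 1.64% lower. Without F/F replicate 3, edgeR called 3 higher and 1 lower of 85, where it called 6.79% of all genes higher and 1.49% lower. Of the 83, 36 were positive and 47 negative, with a median of -0.02. By sublist the medians were 0.06 for 27 fork genes, -0.10 for 28 nucleotide synthesis genes, -0.07 for 15 S phase entry genes and 0.05 for 13 chromatin genes. Of the 28 nucleotide synthesis genes, 8 were positive and 20 negative. The 87 genes together summed to between 2275.1 and 2320.7 CPM in F/F and between 2052.4 and 2165.9 CPM in ΔHep, without overlap. The nucleotide synthesis genes alone summed to 1499.8 to 1572.3 CPM in F/F and 1352.1 to 1424.3 CPM in ΔHep.

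The gene of each sublist with the smallest p shows the range. Ccna2, the S phase and mitosis cyclin A, stood at 0.712, 1.09 and 1.58 CPM in F/F and at 3.61, 3.49 and 3.27 CPM in ΔHep, clearly apart (log2 fold change 1.61, SE 0.32, edgeR adjusted p = 0.0506). Top1, the topoisomerase that relaxes DNA ahead of the fork, stood at 114, 104 and 103 CPM in F/F and at 81.9, 70.6 and 68.4 CPM in ΔHep, apart in the other direction (log2 fold change -0.54, SE 0.11, edgeR adjusted p = 0.0528). Samhd1, which breaks down deoxynucleotides, was at 0.60 (SE 0.18, edgeR adjusted p = 0.115), and Rbbp4, a histone-binding CAF-1 subunit, at -0.36 (SE 0.10, edgeR adjusted p = 0.102).

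Mitosis genes, given for comparison, had higher fold changes in the same libraries. All 30 were positive, with a median of 1.76 against 0.30 for the 42 replication genes, and 5 rose: Cdc20, Bub1, Cdk1, Ncapg and Bub1b. Their summed level was 20.7, 15.5 and 35.5 CPM in F/F and 80.0, 72.1 and 71.5 CPM in ΔHep, without overlap, and F/F replicate 3 was the highest F/F library. Cdk1, the mitotic kinase, stood at 1.09, 0.997 and 1.76 CPM in F/F and at 4.00, 4.59 and 4.30 CPM in ΔHep (log2 fold change 1.75, SE 0.28, edgeR adjusted p = 0.0346). Bub1, a spindle checkpoint kinase, had 4, 3 and 2 counts in F/F and 41, 25 and 34 in ΔHep (log2 fold change 3.15, SE 0.51, edgeR adjusted p = 0.0346). The difference between the lists was not tested. The number of calls among the 30 changed with the library left out. Without F/F replicate 1 or 2 or ΔHep replicate 2 or 3, 0 passed, where calls over all genes fell from 244 to 2, 1, 4 and 5. Without ΔHep replicate 1, 2 passed, and without F/F replicate 3, 16 did. In these fits the log2 fold change of Cdk1 ran from 1.59 to 2.03 and that of Bub1 from 2.95 to 3.47. Group ranges did not overlap for 28 of the 30, all with ΔHep higher, where this held for 15.3% of all tested genes.

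**Figure D4:**
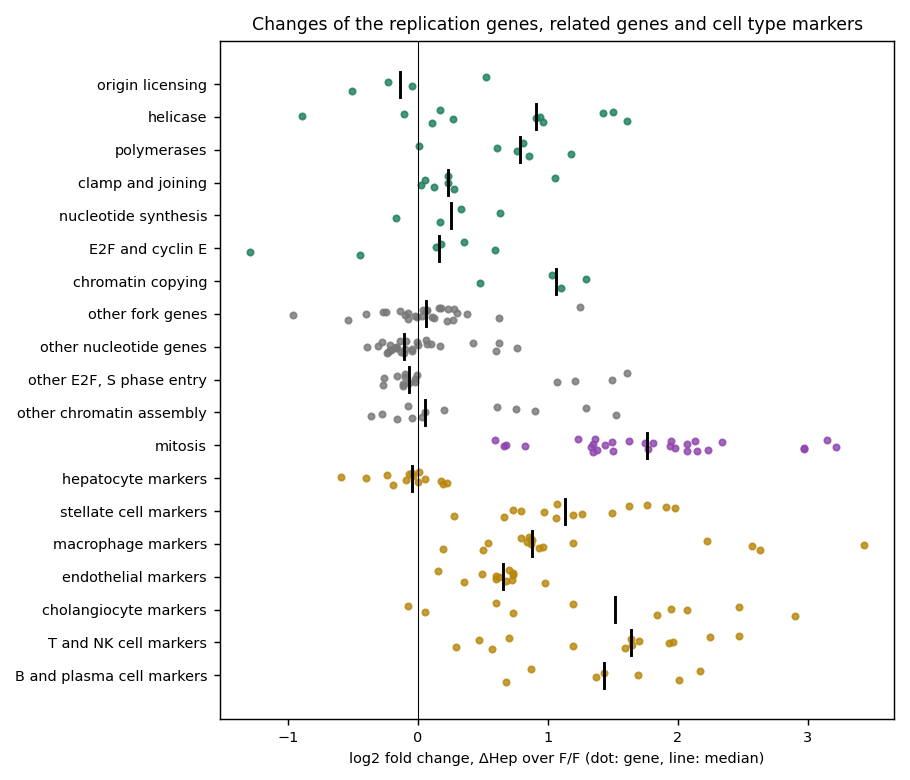
Distribution of log2 fold changes (ΔHep over F/F) by gene list, each dot a tested gene and each line the list's median, with the 7 role groups of replication genes in green, wider replication lists in grey, mitosis genes in purple and cell type markers in brown. Medians of the role groups run from -0.14 for origin licensing to 1.06 for chromatin copying, and the 30 mitosis genes centre on 1.76.

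Markers of other liver cells differed between the groups in the same libraries. Of 14 stellate cell markers, 7 rose, with sums of 332 to 504 CPM in F/F and 695 to 970 CPM in ΔHep. Of 16 macrophage markers, 3 rose, with sums of 308 to 780 CPM and 737 to 969 CPM, which overlapped through F/F replicate 3. Of 10 tested cholangiocyte markers 6 rose (147 to 220 and 250 to 335 CPM), and of 12 endothelial markers 1 rose (450 to 792 and 829 to 980 CPM). Of 13 tested T and NK cell markers 0 passed (7.57 to 11.2 and 13.7 to 32.4 CPM), as did 0 of 7 B cell markers (6.61 to 14.4 and 19.6 to 33.3 CPM) and 0 of 2 neutrophil markers (1.76 to 3.16 and 4.27 to 13.3 CPM). Of 7 erythroid markers 0 passed (126 to 153 and 126 to 205 CPM), and of 14 hepatocyte markers 0 passed (145024 to 152704 and 134678 to 158740 CPM). Without F/F replicate 1 or 2, 0 stellate cell, macrophage, cholangiocyte or endothelial markers passed, and without F/F replicate 3, 9, 14, 8 and 9 did. Without ΔHep replicate 2 or 3 these numbers were 0, 1, 0 and 0, and without ΔHep replicate 1 they were 8, 3, 2 and 0. No marker of these lists in the table was at 0 in all libraries. Dividing cells of any of these types would carry the same replication transcripts. In bulk RNA, a different number of cells of a type and a different amount of RNA per cell cannot be told apart. The part of these cells in the replication gene values was not tested.

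E2F letters were frequent in the start regions of the replication genes. RefSeq windows of 300 bases were at hand for 36 of the 45 genes, and 16 of these (44.4%) held E2F letters in at least 1 window, against 24.0% of 75 other replication genes, 7.7% of 26 mitosis genes and 4.3% of 10453 tested genes. CHR letters were in 25.0%, 18.7%, 73.1% and 17.0% of the same sets. The CCAAT box (CCAAT) was in 63.9%, 49.3%, 76.9% and 42.6%, and the GC box (GGGCGG) in 77.8%, 80.0%, 80.8% and 65.1%. The 14 tested replication genes with E2F letters had a median log2 fold change of 0.71, with 13 positive, and the 19 without had a median of 0.17, with 14 positive. E2f7, at -1.29, was the gene of the 14 that was not positive, and its window held the letters at base -198. Mcm7 and Rfc3, which also held them, were at 0.11 and 0.02. The genes were chosen with earlier results of these data known. Whether the letters went with the size of change was not tested. Mcm2 itself, as printed above, held none. These counts are letter matches and say nothing of binding.

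**Figure D5:**
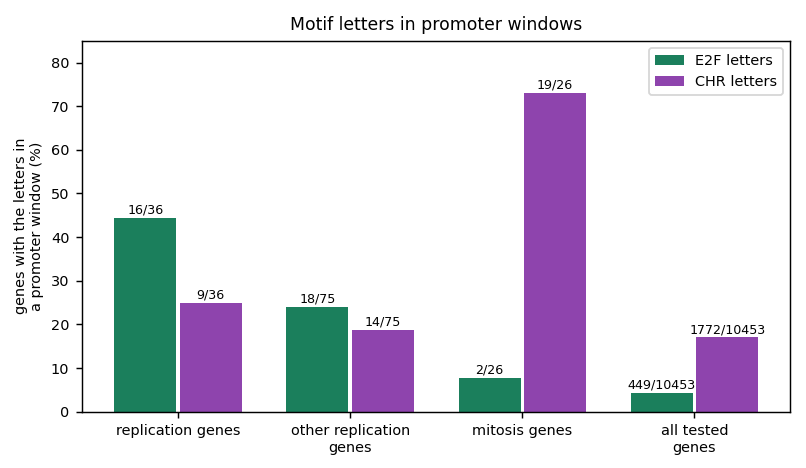
Share of genes, in percent, whose window from 250 bases before to 50 bases after the start held E2F letters (green) or CHR letters (purple), by gene set, with the genes counted above each bar. E2F letters are in 44.4% of the replication genes and 4.3% of all tested genes, and CHR letters in 73.1% of the mitosis genes and 25.0% of the replication genes.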

How the data were processed

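The authors deposited raw read counts per gene symbol for 6 libraries, 3 in each of 2 groups. Per the submitters' processing notes, alignment was with HISAT2 2.0.4 on mm10. The counting program, annotation and strand setting were not given in the sources used here, so values of genes that share exons on either strand (16 of the 45) are uncertain. They are Ccne2, Cdc45, Chaf1a, E2f8, Fen1, Gins2, Lig1, Mcm7, Orc1, Orc2, Orc6, Pole, Rfc2, Rfc4, Rfc5 and Tk1. Fen1 shares 78.8% of its exon length with Gm10143 and Orc2 24.0% with Nif3l1. Tk1 shares 5.76% with Afmid, which stood at 132 CPM in F/F and 117 in ΔHep. Counts were fitted in edgeR 4.0.16 (R 4.3.3) after filterByExpr (minimum count 10, minimum total 15; 14552 of 18260 genes kept), TMM scaling and a quasi-likelihood F test, two-sided, with Benjamini-Hochberg adjustment over all tested genes at 0.05. Each SE is the fold change over the square root of F. The common biological coefficient of variation was 21.5%, close to the counting error at 1 CPM; below that counting error dominates. Within a group, the chi-square statistic of 2 libraries' counts per degree of freedom was 15.6 to 95.33, so all 6 were kept as separate samples.

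Genes named were those past the threshold, the genes of highest mean level and smallest p in each role group, and the smallest p in each wider list; Mcm3, Mcm5, Mcm6, Gins2, Gins3, Rrm2 and others were added after their values were seen. The members and lists were chosen with earlier results of these data known. Exon lengths and overlaps came from a GRCm38 annotation, start regions from RefSeq. Alternatives were library totals, DESeq2 size factors, DESeq2 1.42.0, limma-voom (limma 3.58.1), other filters, each replicate left out and a replicate block. The fit was tested on simulated data.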

Additional observations from a re-analysis of the deposited data

How the results depend on the processing

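Across 13 alternatives, 33 of the 42 tested replication genes kept one sign in every fit (26 positive, 7 negative). The other 9, among them Orc2, Pcna and Ccne1, changed sign at least once. Their values in the main fit ran from -0.05 for Orc2 to 0.35 for Ccne1, which ran from -0.43 to 0.79 over the alternatives. No called value reversed. All genes called numbered 244, and 644 with library totals, 1309 by DESeq2, 88 by limma-voom and 1 to 1246 when each replicate was left out. Replication genes called numbered 1, and 3 with library totals, 8 by DESeq2, 0 by limma-voom, 0 with no filter and 0 to 8 with each replicate left out; the 8 came without F/F replicate 3, and every other omission gave 0. Calls among the other replication genes numbered 0, and 1 with DESeq2 size factors, with library totals, with no filter and with a filter of 1 CPM in 3 libraries, 3 by DESeq2 and 0 to 4 with each replicate left out. The median log2 fold change of the replication genes was 0.30, and 0.39 with library totals, which shifted the median of all genes by 0.09, and 0.30 to 0.36 with each replicate left out. The causes of these differences were not tested. Replicate numbers did not pair the samples: deviations of same-numbered libraries correlated at 0.113, -0.0689 and -0.00898, and not every library correlated best with its own number. With the replicate block, 236 genes and 0 replication genes were called, with a median of 0.28. Depth limits Cdc6 and Cdc45, and 3 libraries a group limit every call.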

Other observations

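Among the replication genes, F/F replicate 1 was the lowest F/F library for 18 of 44 and replicate 3 the highest for 19, while among ΔHep libraries replicate 1 was the highest for 21 and the lowest for 16. The summed counts of the 44 genes made up 0.0304% to 0.0369% of a library.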
